A study of Mus musculus with 4 samples.

Results

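The genes that write, erase and read N6-methyladenosine (m6A) on RNA were examined in mouse group 3 innate lymphoid cells (ILC3s), lymphocytes of barrier tissues that lack rearranged antigen receptors. The set was chosen by name, with earlier results of these data known, and holds 10 genes. They are the writers Mettl3, Mettl14 and Wtap, the erasers Alkbh5 and Fto, and the readers Ythdf1, Ythdf2, Ythdf3, Ythdc1 and Ythdc2. Of these 10 genes, 9 were measured among the 19504 genes with a named row on the array, each by 1 row, and the level of Ythdf2 was not analysed here. The cells were sorted by flow cytometry as lineage-negative, CD90-high and CD45-low from circZbtb20+/+, circZbtb20-/-, Nr4a1+/+ and Nr4a1-/- mice, with 1 array for each genotype. No treatment is named for any group, and the labels used here give neither age nor tissue, nor whether animals were pooled. circZbtb20 is a circular RNA made from exons of Zbtb20, and Nr4a1 is an orphan nuclear receptor induced early after lymphocyte stimulation. The study is known to concern Alkbh5 as the enzyme through which circZbtb20 acts on Nr4a1 mRNA, which makes the level of Alkbh5 and of its counterparts in each knockout a direct question to these data.

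m6A is a methyl mark placed on adenosines of messenger RNA, mostly near stop codons and in long exons. A nuclear complex adds it, with METTL3 as the catalytic subunit, METTL14 as the partner that holds the RNA, and WTAP as the adaptor that brings the complex to nuclear speckles. ALKBH5 and FTO, iron- and oxoglutarate-dependent dioxygenases, remove methyl marks from RNA. Proteins with a YTH domain bind the mark: the YTHDF proteins in the cytoplasm, where they act on decay and translation, YTHDC1 in the nucleus, where it acts on splicing and export, and YTHDC2, which is also an RNA helicase. In lymphocytes the pathway is known for controlling the half-life of signalling and cytokine transcripts.

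Values are deposited log2 expression levels, and differences are log2 differences, first array minus second. No genotype has a second array, so a difference has no replicate check, and precision is limited by how few arrays there are. The rule of size counts a gene where the levels are 2-fold or more apart, a log2 difference of at least 1, and the higher level is not under the median of its array. Those medians lay between 4.34 and 4.51. All 9 members reached the median on all 4 arrays, so none entered the counts through a single array, and none touched the highest value of the table, 19.93. The difference between the wild types is the only available measure of spread. Over the 10693 genes past the filter in that pair, its pooled standard deviation was 0.56, and that of the 9 members was 0.29.

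The arrays stood apart in their levels of cell type markers, and every comparison below was made on them. All 9 measured genes of 12 ILC3 markers lay above the array median on both wild types and the circZbtb20 knockout, with medians of 16.38, 16.38 and 17.63. On the Nr4a1 knockout 8 of the 9 lay above the array median, but their median was 5.48. Kit, Rora, Il23r, Il1r1, Ncr1 and Ahr were at 5.59 or less there, against 6.57 or more on the other arrays, whereas Il22 was at the ceiling of 19.93. Id2 was at 15.48 there, against 17.32 or more on the other arrays, and Il7r at 13.40, against 16.21 or more. All 10 measured genes of 12 T cell markers lay between 14.07 and 18.92 on the Nr4a1 knockout, with a median of 17.16, whereas their medians on the other arrays lay between 4.745 and 6.60. In its T cell markers and in those 6 ILC3 markers the array labelled as Nr4a1 knockout ILC3s goes against its cell type label. The other 3 ILC3 markers are high, with Id2 and Il7r below their levels on every other array. It is called the Nr4a1 knockout by its label, and no value without it can be given, since it is the only array of its genotype. The 7 measured genes of 8 pancreatic acinar markers had medians of 12.69 on the circZbtb20 wild type and 8.18 on the Nr4a1 wild type, against 4.08 and 4.14 on the circZbtb20 and Nr4a1 knockouts. Marker medians of macrophages ran from 4.95 to 7.56, of NK cells and ILC1 from 4.89 to 7.93, of epithelium from 4.39 to 6.46 and of B cells from 3.94 to 4.14. In RNA from a sorted population, fewer cells of a type and less RNA per cell cannot be told apart.

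**Figure D1:**
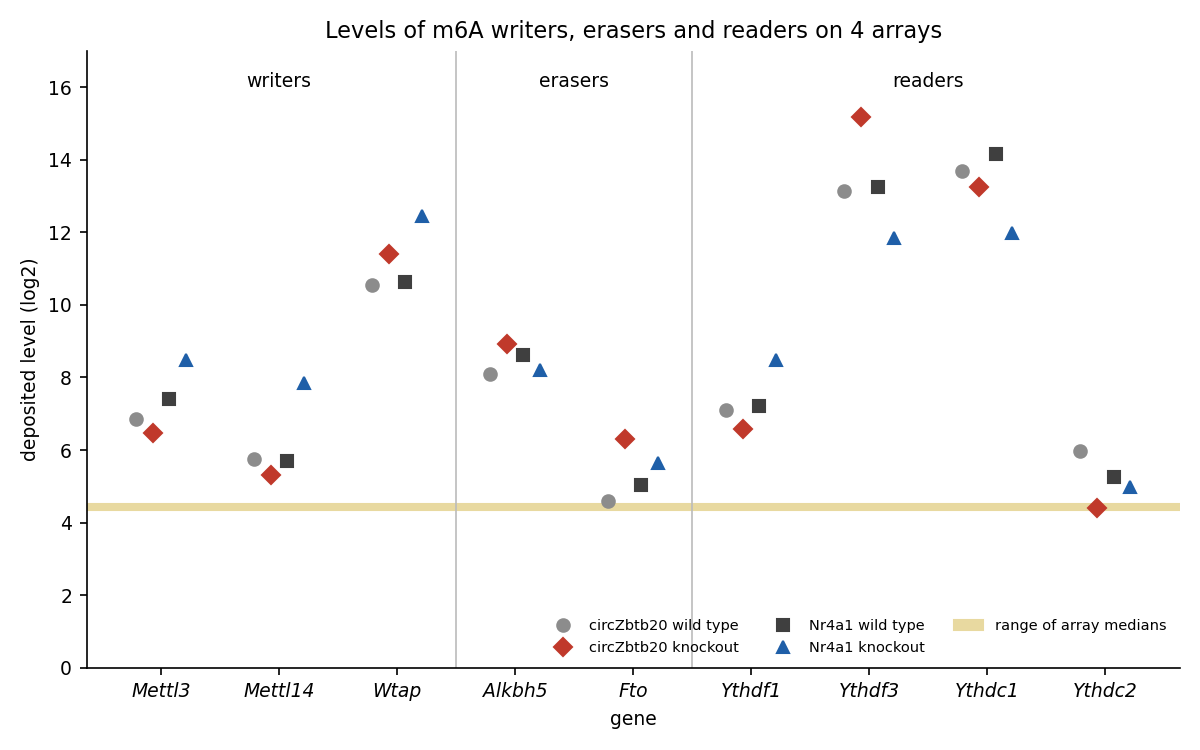
Deposited log2 level (vertical axis) of the 9 measured members (horizontal axis), with 1 point per array and the range of the array medians, 4.34 to 4.51, as a band. Ythdf3 spanned the widest range, 3.34, and Alkbh5 the narrowest, 0.83.

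The wild types gave close values for this gene set. None of the 9 members reached the 2-fold size between them, where 15.3% of all genes past the filter did. The median difference of the members, Nr4a1 wild type minus circZbtb20 wild type, was 0.13, against 0.05 over all genes past the filter. Their median absolute difference was 0.44, beside 0.45 for all genes past the filter. The closest pair of values was that of Mettl14, 5.71 and 5.74, and the widest that of Ythdc2, 5.26 in the wild type of the Nr4a1 pair against 5.98 in the other. A knockout value outside the range of the wild types was common on these arrays. It was seen for 84.9% of genes past the filter in the circZbtb20 knockout, and for 9 of 9 members. In the Nr4a1 knockout it was seen for 87.7% of genes and 8 of 9 members.

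Alkbh5, the eraser at the centre of the study, varied least of all members. Its level was 8.09 and 8.92 in the wild type and knockout of the circZbtb20 pair, and 8.63 and 8.20 in those of the Nr4a1 pair. The knockout of circZbtb20 was the highest of the 4 arrays, and the Nr4a1 knockout lay between the wild types. Against its own wild type the circZbtb20 knockout differed by 0.83, a fold of 1.78, and against the Nr4a1 wild type by 0.29, a fold of 1.22. The gap of 0.54 between the wild types exceeded the second of these differences. Alkbh5 in the Nr4a1 knockout differed by -0.43 from its own wild type and by 0.11 from the other, so that its direction depended on the reference. Neither knockout reached the 2-fold size against either wild type. After cyclic loess normalization, however, Alkbh5 in the Nr4a1 knockout stood at -1.02 against its own wild type, just past that size.

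Fto, the other eraser and a gene also known from body weight genetics, was higher in the circZbtb20 knockout. It was measured at 4.60 and 6.30 in the wild type and knockout of the circZbtb20 pair, and 5.04 and 5.64 in those of the Nr4a1 pair. Both wild types lay within 0.53 of their array medians, near background, and both knockouts lay above both wild types. The circZbtb20 knockout differed by 1.70 from its own wild type and by 1.26 from the other, differences whose size is limited by the wild-type values near background. The Nr4a1 knockout differed by 0.60 and by 1.04 in the same order of own and other wild type, and so did not pass the 2-fold size against its own.

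The writers had no common direction in the circZbtb20 knockout. Mettl3, the catalytic subunit, was at 6.85 and 6.46 in the wild type and knockout of the circZbtb20 pair, and 7.40 and 8.48 in those of the Nr4a1 pair. Mettl14, its RNA-binding partner, was at 5.74, 5.31, 5.71 and 7.84 in the same order of arrays. Both genes were lowest in the circZbtb20 knockout and highest in the Nr4a1 knockout. Wtap, the adaptor, was at 10.55, 11.39, 10.64 and 12.44, with both knockouts above both wild types. Differences of the circZbtb20 knockout from its own wild type were -0.39 for Mettl3, -0.43 for Mettl14 and 0.84 for Wtap. Against the other wild type they were -0.94, -0.40 and 0.75. None of the 3 writers reached the 2-fold size against either wild type there.

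In the array labelled as the Nr4a1 knockout all 3 writers were at least 2-fold higher than in both wild types. Mettl14 differed by 2.13 from its own wild type and by 2.10 from the other, folds of 4.38 and 4.29. Wtap differed by 1.80 and 1.89, and Mettl3 by 1.08 and 1.63. The rule counted 31.9% of all genes past the filter as higher in this pair, and 28.4% as higher than both wild types. The value of Mettl3 depended on the scaling: after quantile normalization it was 0.64 and after cyclic loess normalization 0.50, both under the 2-fold size, while Mettl14 and Wtap stayed past it. The T cell marker median of 17.16 on this array stands beside these values, and its part in them was not tested.

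The cytoplasmic readers Ythdf1 and Ythdf3, paralogues that bind the same mark, lay on opposite sides of the wild types in each knockout. Ythdf3 was at 13.13 and 15.18 in the wild type and knockout of the circZbtb20 pair, and 13.26 and 11.84 in those of the Nr4a1 pair. The wild types were 0.13 apart, with the circZbtb20 knockout above and the Nr4a1 knockout below both. Ythdf3 differed by 2.05 and 1.92 from its own and the other wild type in the circZbtb20 knockout, folds of 4.14 and 3.78. It differed by -1.42 and -1.29 in the Nr4a1 knockout, folds of 2.68 and 2.45 in size. Ythdf1 was at 7.10 and 6.59 in the wild type and knockout of the circZbtb20 pair, and 7.20 and 8.47 in those of the Nr4a1 pair. Here the circZbtb20 knockout was the lowest array and the Nr4a1 knockout the highest. The differences of Ythdf1 were -0.51 and -0.61 in the circZbtb20 knockout, under the 2-fold size, and 1.27 and 1.37 in the Nr4a1 knockout. Quantile normalization brought the value of Ythdf1 in the Nr4a1 pair down to 0.82 and cyclic loess to 0.68, both under that size.

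Ythdc1, the nuclear reader, was lower in the Nr4a1 knockout. It was at 13.70 and 13.26 in the wild type and knockout of the circZbtb20 pair, and 14.15 and 11.98 in those of the Nr4a1 pair. Both knockouts lay below both wild types. The Nr4a1 knockout differed by -2.17 from its own wild type and by -1.72 from the other, folds of 4.50 and 3.29 in size. The circZbtb20 knockout differed by -0.44 and -0.89, under the 2-fold size against both. Ythdc2, the helicase reader, was at 5.98 and 4.41 in the wild type and knockout of the circZbtb20 pair, and 5.26 and 4.97 in those of the Nr4a1 pair. Its value in the circZbtb20 knockout was 0.03 above that array's median and so near background. It differed there by -1.57 from its own wild type but by -0.85 from the other, which did not reach the 2-fold size. The Nr4a1 knockout differed in Ythdc2 by -0.29 from its own wild type and by -1.01 from the other.

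**Figure D2:**
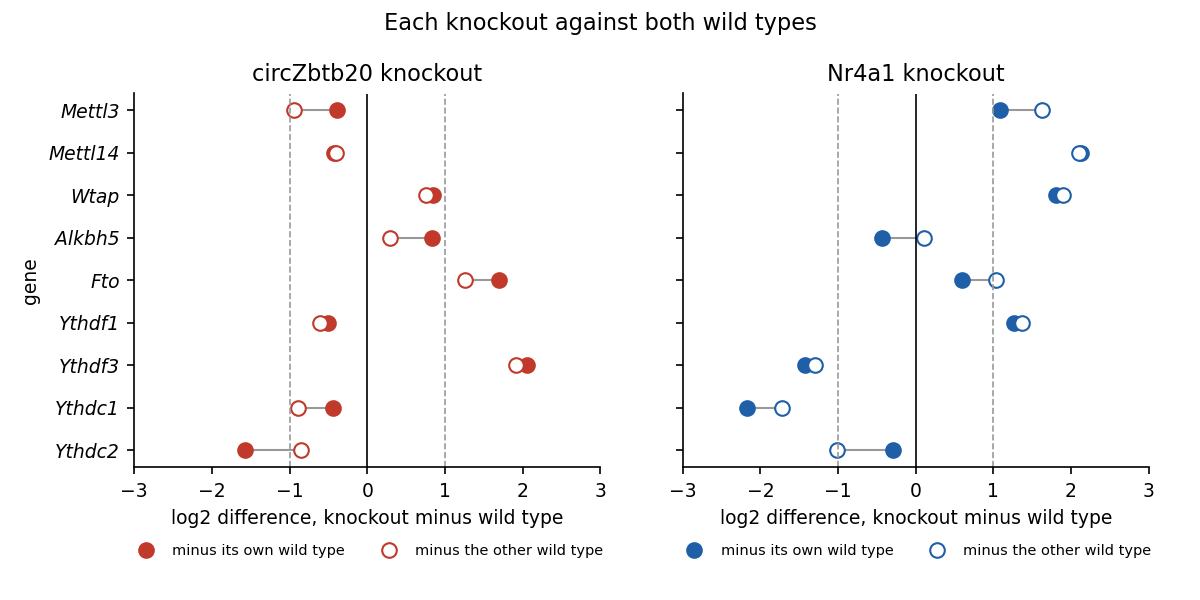
Log2 difference (horizontal axis) of each member (vertical axis) in each knockout, minus its own wild type (filled points) and minus the other wild type (open points), with dashed lines at the 2-fold size. Ythdf3 lies at 2.05 and 1.92 in the circZbtb20 knockout and at -1.42 and -1.29 in the Nr4a1 knockout, and Alkbh5 lies on both sides of 0 in the Nr4a1 knockout.

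Counted over the set, the circZbtb20 knockout held 2 members higher, Fto and Ythdf3, and 1 lower, Ythdc2, than its own wild type. That is 3 of 9, where 46.7% of all genes past the filter were counted in either direction, 27.3% as higher and 19.4% as lower. Against both wild types 2 of 9 members remained, Fto and Ythdf3, where 36.7% of genes did. The median difference of the members was -0.39 against its own wild type and -0.40 against the other, beside 0.17 and 0.11 for all genes past the filter. The members' median absolute difference of 0.83 was likewise close to the 0.92 of all genes past the filter. Against the Nr4a1 wild type alone 2 of 9 were counted, beside 47.4% of genes. The share of members counted was thus not above that of all genes in any of these comparisons.

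The Nr4a1 knockout held 4 members higher than its own wild type, Mettl3, Mettl14, Wtap and Ythdf1, and 2 were lower, Ythdf3 and Ythdc1. That is 6 of 9 members beside 52.7% of all genes past the filter, 31.9% higher and 20.8% lower. The same 6 passed against both wild types, beside 44.1% of genes. After quantile or cyclic loess normalization 4 of 9 passed against both wild types, 2 in each direction, beside 40.5% and 41.1% of genes. The median difference of the members was 0.60 against its own wild type and 1.04 against the other, beside 0.29 and 0.30 for all genes past the filter. Their median absolute difference was 1.27, and that of all genes past the filter was 1.07. Against the circZbtb20 wild type alone 8 of 9 members were counted, 5 higher and 3 lower, beside 53.2% of genes, 32.8% higher and 20.4% lower. The additional members there were Fto, at 1.04, and Ythdc2, at -1.01, both close to the 2-fold size. The share of members counted was above that of all genes in these comparisons of deposited values, by differences that have no test here. Against its own wild type alone it was below after quantile normalization, with 4 of 9 beside 49.8% of genes. After cyclic loess normalization it was above there, with 5 of 9 beside 50% of genes. Against both wild types the 4 of 9 stayed above the share of all genes after either normalization.

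**Figure D3:**
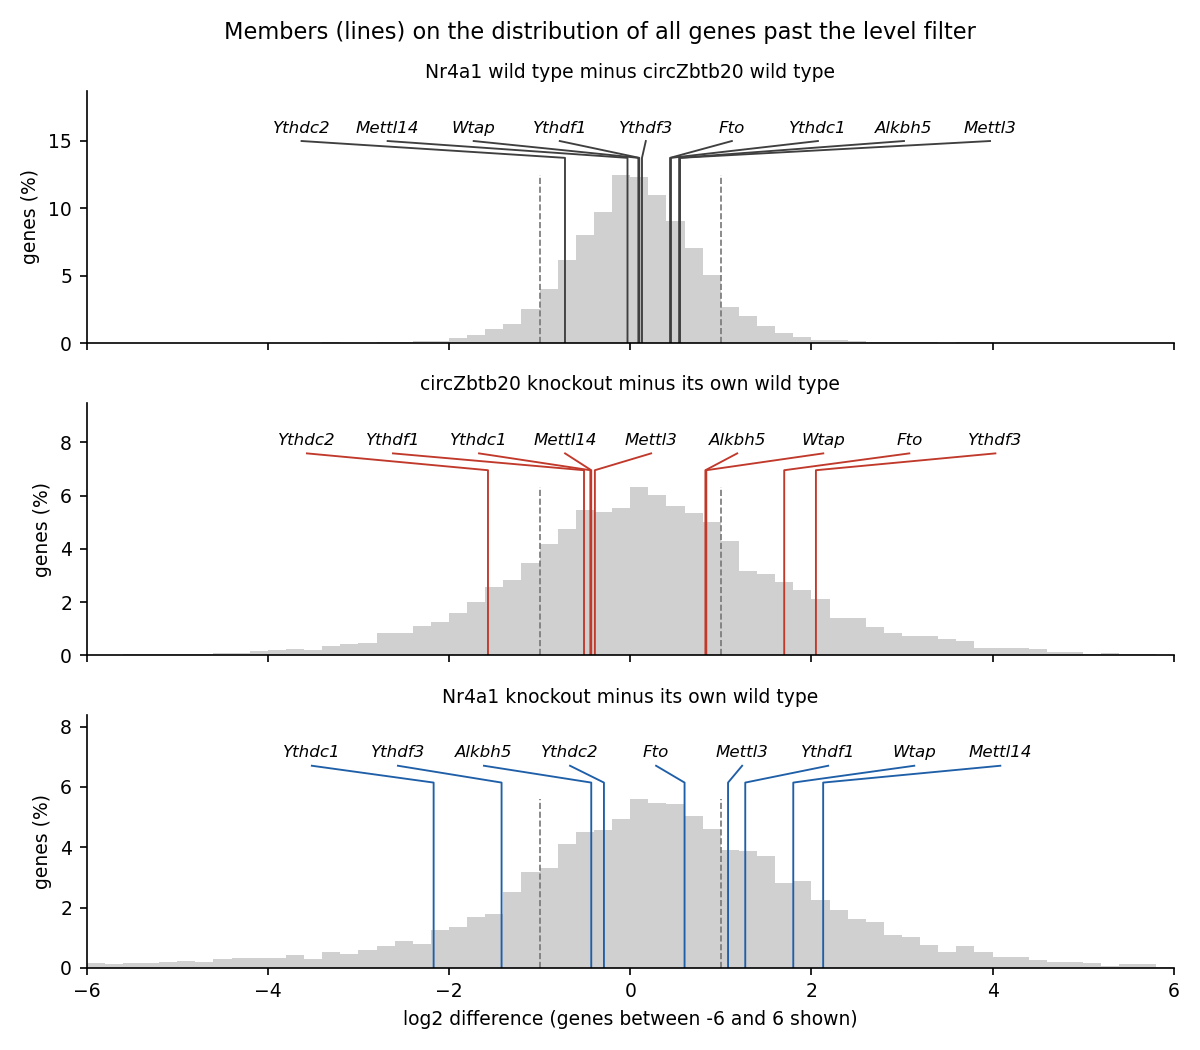
Percent of all genes past the level filter (vertical axis) by log2 difference (horizontal axis) for the wild types and for each knockout minus its own wild type, with a line for each member and dashed lines at the 2-fold size. No member passes the dashed lines between the wild types, while 3 do in the circZbtb20 pair and 6 in the Nr4a1 pair, within distributions that are themselves wider.

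The wild types can be joined as 1 group, since the labels call both wild-type ILC3s, and this allows a limma fit. That fit rests on 1 residual degree of freedom and assumes that each lone knockout array varies like the wild types. Each gene's variance was also drawn toward a prior over all 19504 genes, with 2.54 prior degrees of freedom. No level filter was applied to those genes, whereas all 9 members reached the median on all 4 arrays. Shares of genes and of members from this fit are thus not over like sets. Its p-values measure only the spread between these wild-type samples, partly pooled over genes, and that spread may be technical. For the circZbtb20 knockout 0 of 19504 genes, or 0.0%, had a Benjamini-Hochberg adjusted p under 0.05 in limma, with 24.0% of genes at an unadjusted p under 0.05. Among the members 2 were at such an unadjusted p, Ythdf3, with an adjusted p of 0.0667, and Fto, with an adjusted p of 0.122. Alkbh5 differed there by 0.56 with a standard error of 0.38 and an adjusted limma p of 0.478. For the Nr4a1 knockout 2180 genes, or 11.2%, passed, and 2 of the 9 members did. At an unadjusted p under 0.05 were 27.4% of genes and 6 of the 9 members. Mettl14 differed by 2.12 from the mean of the wild types, with a standard error of 0.29 and an adjusted limma p of 0.0385. Wtap differed by 1.84 (standard error 0.29), with an adjusted limma p of 0.0476. Ythdc1, at -1.94, had an adjusted limma p of 0.0603, Ythdf3 of 0.0824, Ythdf1 of 0.0854 and Mettl3 of 0.134. For Alkbh5 the adjusted limma p was 0.851.

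Wtap and Ythdf1 were among the members higher in the Nr4a1 knockout than in both wild types, and Alkbh5 was not, so the 250 bases upstream of a RefSeq transcript start (GRCm38.p6) are shown for these 3 genes. For Wtap, which has 3 listed starts, the most upstream was used. Capitals mark the GC box GGGCGG and the CCAAT box CCAAT, each on either strand, in sequences read 5′ to 3′ on the strand of the gene. The Wtap window lies at chr17:12992544-12992793 on the minus strand, that of Ythdf1 at chr2:180920937-180921186 on the minus strand, and that of Alkbh5 at chr11:60537433-60537682 on the plus strand.
Wtap: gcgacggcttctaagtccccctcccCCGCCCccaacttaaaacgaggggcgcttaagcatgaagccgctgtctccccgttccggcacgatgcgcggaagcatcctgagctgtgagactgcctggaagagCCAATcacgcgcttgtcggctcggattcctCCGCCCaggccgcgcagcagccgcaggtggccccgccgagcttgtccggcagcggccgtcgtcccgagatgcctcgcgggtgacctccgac
Ythdf1: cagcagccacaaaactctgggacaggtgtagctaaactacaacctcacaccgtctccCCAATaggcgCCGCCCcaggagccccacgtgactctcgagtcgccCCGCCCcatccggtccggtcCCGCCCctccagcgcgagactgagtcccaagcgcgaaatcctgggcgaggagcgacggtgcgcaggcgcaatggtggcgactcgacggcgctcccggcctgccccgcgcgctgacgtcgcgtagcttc
Alkbh5: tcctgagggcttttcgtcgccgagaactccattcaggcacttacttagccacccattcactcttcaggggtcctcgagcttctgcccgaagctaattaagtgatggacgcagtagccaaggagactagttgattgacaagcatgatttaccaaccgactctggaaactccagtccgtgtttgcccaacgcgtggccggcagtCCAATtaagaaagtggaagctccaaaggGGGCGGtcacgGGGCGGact

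All 3 windows shown hold both boxes: 2 GC boxes in Wtap, 3 in Ythdf1 and 2 in Alkbh5, and 1 CCAAT box in each. The window of Mettl3, also counted as higher in the Nr4a1 knockout, and that of Fto hold neither box. Those of Ythdf2 and Ythdc1 hold 1 and 4 GC boxes and no CCAAT box. Of the 32851 windows of this length in the table, 32.7% hold a GC box and 33.8% a CCAAT box. The 3 windows shown are rich in CG dinucleotides, with 29 in Wtap, 30 in Ythdf1 and 14 in Alkbh5, against a median of 6 over all windows. The element that NR4A receptors bind as monomers, AAAGGTCA, was searched on both strands in the windows of the 7 members with an entry, Mettl3, Wtap, Alkbh5, Fto, Ythdf1, Ythdf2 and Ythdc1. None of these 7 windows holds it, and 1.34% of all windows do. The core letters of the RBPJ site through which Notch receptors act, TGGGAA, occur 2 times in the Fto window and in none of the other 6, and in 21.6% of all windows. These are matches of letters in short windows and say nothing of binding.

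Nr4a1, whose mRNA the study links to Alkbh5, is given beside it, with Nr4a2, Nr4a3 and Notch2. Whether these genes lie downstream of Alkbh5 was not tested. Nr4a1 was at 19.93, the ceiling of the table, and 15.98 in the wild type and knockout of the circZbtb20 pair, and at 18.11 and 11.63 in those of the Nr4a1 pair. It was lowest on the array labelled as its knockout, yet at the 95.1 percentile of all genes there. The labels do not say which part of the gene was deleted, so whether the probes lie in it was not tested. Against the Nr4a1 wild type, which is under the ceiling, the circZbtb20 knockout differed by -2.13, while Alkbh5 differed by 0.29 there. Nr4a2 differed by -2.59 and Nr4a3 by -3.70 in the same comparison. Notch2 differed by -0.64 there, and by -2.91 between the Nr4a1 knockout and its own wild type. These arrays measure transcript levels and not methylation, so the mark itself has no value here.

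Other genes of the pathway were read from 5 lists with 41 genes, of which 35 were measured. The lists were written with earlier results of these data known, so their counts beside those of all genes are a description and no test. Set against both wild types, the circZbtb20 knockout had 11 of the 35 higher and 3 lower, where 22.3% of all genes past the filter were higher and 14.4% lower. Of the same 35, 15 were higher and 1 lower in the Nr4a1 knockout, beside 28.4% and 15.7% of all genes past the filter. Counts and medians of each list are over all its measured genes, whereas those of all genes are over genes past the filter. Past the filter against both wild types were 33 of the 35 in the circZbtb20 knockout and 34 in the Nr4a1 knockout. The split in the circZbtb20 knockout depended on the scaling, with 9 higher and 5 lower after quantile or cyclic loess normalization. After median centring it was 11 and 2 there, and 17 and 0 in the Nr4a1 knockout. The median difference of the 35 genes in the circZbtb20 knockout was 0.44 from its own wild type, beside 0.17 for all genes past the filter. In the Nr4a1 knockout it was 0.97 from its own wild type, beside 0.29. Between the wild types it was -0.04, beside 0.05.

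Partners of the writers and other RNA methyltransferases were measured for 9 of 10 genes. In the circZbtb20 knockout 3 of the 9 were higher and 0 lower than both wild types, beside 22.3% and 14.4% of all genes past the filter. After quantile or cyclic loess normalization 2 were higher and 1 lower. Virma, the scaffold of the writer complex, was at 14.01 there, against 13.00 in its own and 12.29 in the other wild type, and its difference from its own fell to 0.75 after quantile and 0.68 after cyclic loess normalization. Mettl5, a methyltransferase of 18S ribosomal RNA, differed by 2.59 and 2.78 from its own and the other wild type, and Zcchc4, which methylates 28S ribosomal RNA, by 1.68 and 1.63. The Nr4a1 knockout had 5 of the 9 higher and 0 lower, beside 28.4% and 15.7% of all genes past the filter. Trmt112, the activating partner of METTL5, differed by 3.70 and 3.36, and Pcif1, which methylates the adenosine next to the cap, by 2.88 and 2.36. Cbll1, a ubiquitin ligase bound to the writer complex, differed by 2.26 and 2.22, and Zcchc4 by 1.83 and 1.88. Mettl16, which methylates U6 RNA, differed by 1.64 and 1.98, but it lay under the array median on the other 3 arrays and was counted through the Nr4a1 knockout array alone. Rbm15 and Zc3h13, subunits that bring the complex to its RNA, did not pass against both wild types in either knockout, except that Zc3h13 did in the circZbtb20 knockout after quantile normalization, at -1.63 and -1.01, and after cyclic loess.

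Among other proteins reported to bind m6A or RNA structures it opens, 8 of 10 genes were measured. In the circZbtb20 knockout 3 were higher, Rbmx, Hnrnpc and Fmr1, and 3 lower, Eif3a, Prrc2a and Hnrnpa2b1. Of all genes past the filter 22.3% were higher and 14.4% lower there. Rbmx, a nuclear splicing regulator, differed by 2.44 and 2.16 from its own and the other wild type, and Hnrnpc by 1.90 and 1.83. Fmr1, which regulates translation, differed by 1.65 and 2.18. Eif3a, a subunit of a translation initiation factor, differed by -1.37 and -1.54, and Prrc2a by -1.02 and -1.73, the first of which was -0.92 after median centring. In the Nr4a1 knockout 2 were higher and 0 lower, beside 28.4% and 15.7% of all genes past the filter. Hnrnpa2b1, a nuclear RNA-binding protein, was at 16.14 and 14.86 in the wild type and knockout of the circZbtb20 pair, and 16.37 and 18.45 in those of the Nr4a1 pair. It thus lay below both wild types in the first knockout, by -1.28 and -1.51, and above both in the second, by 2.08 and 2.31. Rbmx differed by 2.02 and 2.30 in the Nr4a1 knockout.

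Genes that act with the readers in splicing, export and decay were represented by 7 of 8. In the circZbtb20 knockout 3 were higher and 0 lower than both wild types, beside 22.3% and 14.4% of all genes past the filter. After quantile or cyclic loess normalization 1 was lower, Xpo1, a nuclear export receptor, at -1.09 and -1.44 after quantile normalization. Srsf3, a splicing factor that YTHDC1 recruits, was at 13.99 there, against 10.58 and 10.90 in its own and the other wild type. Cnot1, the scaffold of the deadenylase that YTHDF2 brings to m6A-marked RNA, differed by 1.75 and 2.12, and Srsf10, a splicing factor that YTHDC1 holds back, by 1.62 and 1.49. In the Nr4a1 knockout 4 were higher and 0 lower, beside 28.4% and 15.7% of all genes past the filter. Xrn1, the cytoplasmic exonuclease that YTHDC2 binds, differed by 4.08 and 3.01, and Xpo1 by 3.20 and 3.56. Srsf10 differed by 2.51 and 2.64, and Cnot1 by 1.69 and 1.32, the second of which was 0.95 after quantile and 0.94 after cyclic loess normalization.

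Of the genes for supply and recycling of S-adenosylmethionine, the methyl donor of all these reactions, 5 of 6 were measured. In the circZbtb20 knockout 1 was higher, Mat2b, a regulatory subunit of the synthetase, by 1.30 and 1.02, and none was lower. Of all genes past the filter 22.3% were higher and 14.4% lower there. After quantile or cyclic loess normalization 0 of the 5 passed there. The Nr4a1 knockout had 3 of the 5 higher and 0 lower, beside 28.4% and 15.7% of all genes past the filter. Mtr, the methionine synthase, differed by 2.55 and 2.41, Mat2b by 1.90 and 2.18, and Ahcy, the enzyme that clears S-adenosylhomocysteine, by 1.63 and 1.96.

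Relatives of Alkbh5 in the AlkB family, which act on DNA, tRNA or protein, were measured for 6 of 7. In the circZbtb20 knockout 1 was higher and 0 lower than both wild types, beside 22.3% and 14.4% of all genes past the filter. The Nr4a1 knockout had 1 higher and 1 lower, beside 28.4% and 15.7%. Alkbh6 was at 10.23 and 12.17 in the wild type and knockout of the circZbtb20 pair, and 9.23 and 8.10 in those of the Nr4a1 pair. It lay above both wild types in the circZbtb20 knockout, by 1.94 and 2.94, and below both in the Nr4a1 knockout, by -1.13 and -2.13, the first of which was -0.96 after median centring. Alkbh8, a tRNA modifying enzyme, differed by 3.01 and 2.32 in the Nr4a1 knockout, where it was the 1 homologue counted as higher. The other 4 measured homologues, Alkbh2, Alkbh3, Alkbh4 and Alkbh7, did not pass against both wild types in either knockout.

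**Figure D4:**
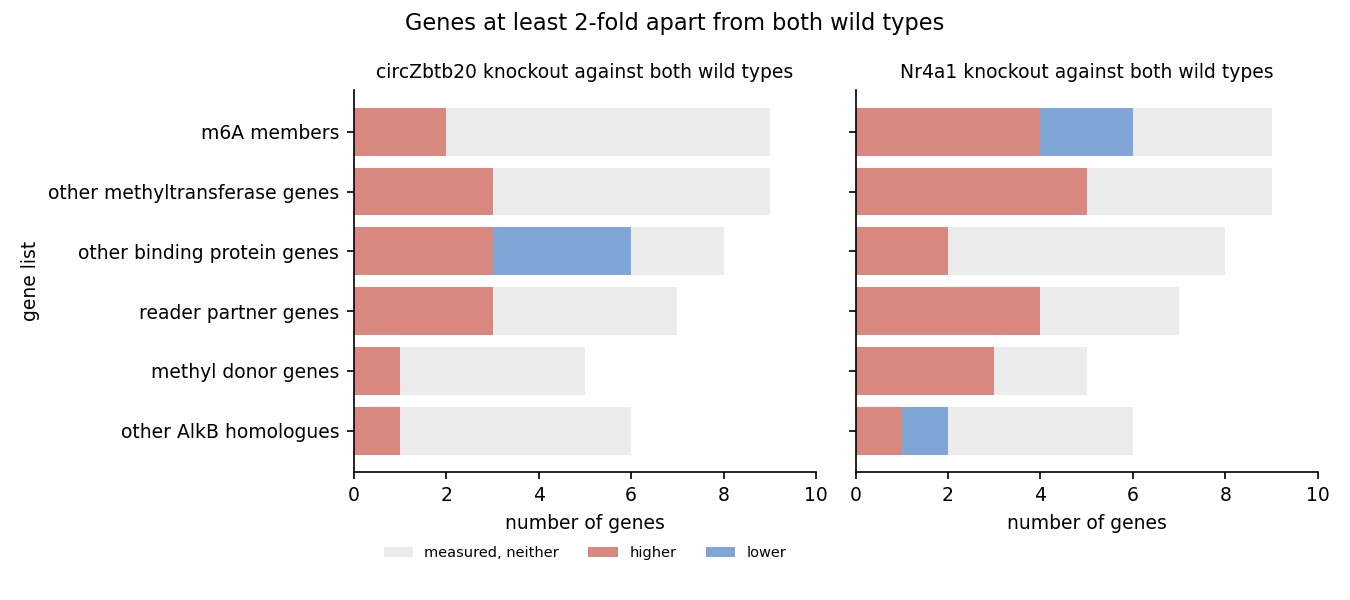
Number of genes (horizontal axis) in the m6A set and in each of the 5 pathway lists (vertical axis) that were at least 2-fold higher or lower than both wild types in each knockout, with the measured genes that were neither in light grey. The m6A set has 2 genes higher and 0 lower in the circZbtb20 knockout, and 4 higher and 2 lower in the Nr4a1 knockout, on the deposited values before any of the other scalings.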

How the data were processed

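Log2 expression values of 4 arrays were used as deposited. Per the submitters' processing notes, the authors made them with Affymetrix Power Tools and RMA. The quantile step of RMA hides a change of total RNA per cell. The array distributions were still unequal, with 95th percentiles from 11.378 to 11.89, and the reason was not tested. Versions, settings and genome build: not given in the sources used here. As deposited, the log2 values reach a shared ceiling of 19.93, so a difference from it is a bound and folds need not equal ratios of RNA. The design text names another array type than the probe table. Of 22205 rows, 19571 had 1 gene symbol and 2634 none; a gene's row with the highest mean was used, which left 19504 genes.

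Groups follow the titles. Each knockout was set against both wild types by the 2-fold rule of size, with no test; limma 3.58.1 (R 4.3.3) gave the only p-values. The counting rule and the limma fit were tested on simulated data. Alternatives were the reference array, quantile, cyclic loess and median scaling, row choice, filter and size. All 9 measured members were named, as were pathway genes past the rule in both references, with Nr4a1, Nr4a2, Nr4a3 and Notch2. The members and lists were chosen with earlier results of these data known.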

Additional observations from a re-analysis of the deposited data

Results flagged for a closer look

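For 4 of the 9 members the knockouts lay on opposite sides of both wild types, as they did for 28.8% of all genes past the filter. The differences between the pairs below were not tested. Each is the difference in the circZbtb20 pair minus that in the Nr4a1 pair, each knockout against its own wild type. For Ythdf3 it was 3.47, from 2.05 and -1.42. For Mettl14 it was -2.56, from -0.43 and 2.13. For Ythdf1 it was -1.78, from -0.51 and 1.27, and for Mettl3 it was -1.47, from -0.39 and 1.08. Of these values, both sides reached the 2-fold size for Ythdf3 alone. The T cell marker median was 17.16 on the Nr4a1 knockout array and 5.545 on the circZbtb20 knockout array, and its part in these differences was not tested.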

How the results depend on the processing

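Of 18 member differences, 17 kept their sign under all 8 alternatives run on them, the exception being Alkbh5 in the Nr4a1 pair, which ran from -1.02 to 0.11. Not all of these are separate checks. Each member had 1 row, so taking the mean over rows could not change a value. The limma difference equals that from the mean of both wild types. Quantile normalization gave 2 and 4 members against both wild types, and the same counts when the other knockout was left out of it, an alternative chosen after seeing the data, as were cyclic loess and median centring of the pathway lists. At a 4-fold size the members counted fell to 1 in the circZbtb20 pair and 2 in the Nr4a1 pair, beside 18.3% and 25.0% of all genes, and to 0 and 1 against both wild types, beside 14.2% and 20.9%. With the higher value at or above the 75th percentile of its array, the circZbtb20 pair had 1 of the 6 members past that filter counted, beside 61.4% of genes, and 1 against both wild types, beside 51.5%. The Nr4a1 pair had 6 of the 7 members past that filter counted, beside 67.5% of genes, and 6 against both wild types, beside 60.4%. The members' median in the circZbtb20 pair was -0.60 after cyclic loess, and the cause was not tested. In the Nr4a1 pair it was 1.04 against the other wild type and 0.82 against the mean of both. Median centring moved the median of all 19504 genes in the Nr4a1 pair from 0.00 to 0.17. The other 64 alternatives to the counts and medians stayed within 1.5 times the count, or within the wild-type standard deviation over the root of the number of members. Among them, the mean over rows and the removal of the level filter could not move a member count. Fto in the wild types and Ythdc2 in the circZbtb20 knockout lie near background, which limits their differences. No paired analysis was possible because each genotype has 1 array.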
